A study of Procambarus virginalis with 4 samples.

Results

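Among 13478 rows of a gene body methylation table from marbled crayfish (*Procambarus virginalis*) hemocytes, 40 well methylated rows kept at most 40% of their control level in both animals depleted of *Dnmt1*. A row is a gene model, or a numbered segment of a gene model whose identifier ends in covsplit, and its value in an animal is the average fraction of methylated CpGs, given here as percent. The 40 rows were chosen by measured values. Both controls had to be at 50% or more but not both at 90% or more, which left 2294 eligible rows, and each knockdown (KD) animal had to be at or below 0.4 times the mean of the controls. Whole-genome bisulfite sequencing was performed on hemocyte DNA of 4 animals of this clonal species, bled 28 days post-injection. Double-stranded RNA (dsRNA) targeting GFP, a jellyfish gene, was injected into the 2 control animals, and dsRNA targeting *Dnmt1* into the 2 KD animals. The knockdown lowers the transcript by RNA interference and is not a deletion, and the hemocytes of an animal were analyzed as a mixture of cell types. A shift in cell type composition and a loss within cells cannot be told apart in such a mixture. Table identifiers are not paired here with gene names, so neither the knockdown target, nor hemocyte markers, nor the function of any member was checked in these values.

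Dnmt1 is the maintenance methyltransferase. It copies CpG methylation onto the newly made strand after DNA replication, so that methylation is diluted over cell divisions when the enzyme is scarce. In many invertebrates DNA methylation lies mainly within the bodies of a subset of genes, often broadly expressed ones, while other genes carry very little of it. Hemocytes are the circulating immune cells of crustaceans and are replenished from hematopoietic tissue.

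The members had an ordinary level within the eligible range in the controls and a far lower one in the KD animals. Averaged over the 40 members, controls 1 and 2 had methylation levels of 73.8% and 70.7%, whereas KD 1 and KD 2 had 20.5% and 19.0%. The mean of the controls was 72.3% ± 2.21 (SD, n = 2), and that of the KD animals was 19.7% ± 1.10 (SD, n = 2). For the other 2254 eligible rows, the controls averaged 73.4% ± 2.53 (SD, n = 2) and the KD animals averaged 45.1% ± 2.79 (SD, n = 2). These values chose the members and are a description, so that no test of the loss is given for them. An exact permutation test of 2 animals against 2 could in any case not give a p-value below 0.333. Over the members, the lowest, median and highest levels were 50%, 69.1% and 100% in control 1, and 50%, 72.6% and 100% in control 2. They were 0%, 20.2% and 37.3% in KD 1, and 0%, 20% and 37.0% in KD 2. The 2 animals of each group were thus alike in these summaries, although single rows differed between them. The rule bounds both KD animals from above and both controls from below, so this likeness is no sign of agreement between animals. The gap between the KD animals of a member ranged from 0 to 20.6 percentage points with a median of 4.65. In the other eligible rows, which the rule does not bound in this way, the median gap was 8.61. The average loss of a member ranged from 33.6 to 86.2 percentage points with a median of 52.8, compared with a median of 27.8 in the other eligible rows. In the control animals the members thus had about the same average level as the other eligible rows, within a range that the rule sets for both. The level of the KD animals before injection was not measured.

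**Figure D1:**
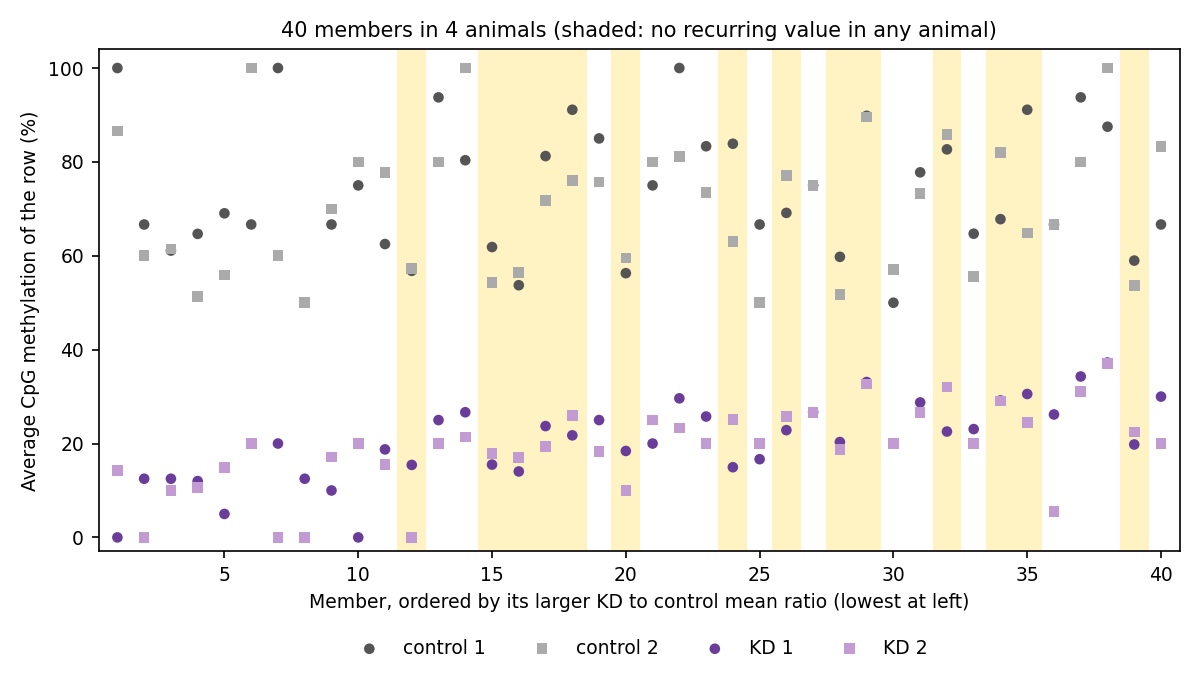
Average CpG methylation (%, vertical axis) of each of the 40 members in control 1, control 2, KD 1 and KD 2, with members ordered along the horizontal axis by the larger of their KD to control mean ratios; shading marks members with no recurring value and equal values lie on top of each other. The highest KD value was 37.3% and the lowest control value was 50%, so the groups do not overlap, as the choice of rows requires.

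All 40 members were lower in KD by more than 10 percentage points, the difference used in the study to call a gene, and this holds for 35.9% of all rows. Both KD animals were below both controls in each member, as in 56.2% of all rows and 93.2% of the eligible ones. Neither count says anything about the members, since the rule fixes both. Within the members, KD 2 was lower than KD 1 in 24 rows, higher in 13 and equal in 3. The median retained share, that is the KD level over the control mean of the row, was 29.2% in KD 1 and 26.2% in KD 2. It was 64.6% and 58.5% in the other eligible rows. A level of 0% in one of the KD animals was listed for 6 members (15%) and for 9 of the other rows (0.399%), and no member was at 0% in both. A row at 0% passes the limit in that animal, so the rule itself favors this difference.

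The members with the deepest loss were inspected first. The 8 with the lowest larger ratio all carried a recurring value, meaning a level strictly between 0% and 100% that at least 5 rows of the same animal share in every printed digit. In WNGS01164437.2143905_0_covsplit, controls 1 and 2 were listed at 100% and 86.6%, and KD 1 and KD 2 at 0% and 14.3%. The level of 14.3% was shared by 30 rows of KD 2. WNGS01165796.2441430_0_covsplit had 66.7% and 60% in the controls, 12.5% in KD 1 and 0% in KD 2. In these members one KD animal was listed as fully unmethylated and the other was not. WNGS01095805.1302170_0_covsplit was even within both groups, with 61.1% and 61.4% in the controls and 12.5% and 10% in KD 1 and KD 2. WNGS01007136.492760_0_covsplit had 64.7% and 51.3% in the controls, and 12% and 10.7% in KD 1 and KD 2. WNGS01004946.364924, a model without the segment ending, had 69.0% and 55.9% in the controls and 5% and 14.9% in KD 1 and KD 2.

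Large gaps between the controls occurred in the same set. WNGS01169062.2605988_2_covsplit was at 66.7% in control 1 and 100% in control 2, with 20% in each KD animal. WNGS01031522.760023_0_covsplit was at 100% in control 1 and 60% in control 2, with 20% in KD 1 and 0% in KD 2. Its controls differed by 40 percentage points, the widest control gap among the members. WNGS01169491.2636259_0_covsplit had exactly 50% in both controls, 12.5% in KD 1 and 0% in KD 2, of which the 50% was shared by 49 rows of control 1 and 42 rows of control 2.

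The 14 members with no recurring value lost less. Their larger ratio had a median of 34.7%, compared with 30.3% in the 26 members with a recurring value, and only 1 of them was listed at 0% in a KD animal. This was WNGS01002471.214547_0_covsplit, with 56.8% and 57.3% in the controls, 15.4% in KD 1 and 0% in KD 2. WNGS01169498.2640841_1_covsplit had 61.9% and 54.3% in the controls, and 15.5% and 17.9% in KD 1 and KD 2. WNGS01037133.805931_0_covsplit had 53.7% and 56.4% in the controls, and 14.1% and 17.1% in KD 1 and KD 2. In both rows the KD animals differed by only about as much as the controls did or less. WNGS01036507.802495_0_covsplit had 81.2% and 71.8% in the controls, and 23.7% and 19.4% in KD 1 and KD 2. WNGS01161520.1945332_0_covsplit had 91.1% and 76.0% in the controls, and 21.7% and 25.9% in KD 1 and KD 2. The former had its higher KD value in KD 1 and the latter in KD 2. WNGS01007476.505598_0_covsplit had 56.3% and 59.5% in the controls, and 18.4% and 9.99% in KD 1 and KD 2. WNGS01007521.506327_0_covsplit had 83.9% and 63.1% in the controls, and 15% and 25.2% in KD 1 and KD 2. The last of these 8 by the same ranking, WNGS01167104.2509475, had 69.1% and 77.1% in the controls and 22.9% and 25.7% in KD 1 and KD 2.

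The limit of 0.4 cut through a continuous range. Just inside it lay WNGS01163519.2038263_1_covsplit, whose larger ratio was 40%, with 66.7% and 83.3% in the controls and 30% and 20% in KD 1 and KD 2. All 4 of its values recur. WNGS01066025.1064471_0_covsplit followed at 39.8%, with 59.0% and 53.6% in the controls and 19.8% and 22.4% in KD 1 and KD 2. WNGS01169498.2636774_0_covsplit came next at 39.7%, with 87.5% and 100% in the controls and 37.3% and 37.0% in KD 1 and KD 2. The nearest rows outside were WNGS01052365.955419_0_covsplit, WNGS01042579.845388_0_covsplit and WNGS01004967.366008_0_covsplit, with larger ratios of 40.2%, 40.3% and 40.4%. The larger ratio was above 0.35 in 15 members and between 0.4 and 0.45 in 43 of the other rows.

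To ask whether the same rows lost most in both KD animals, the number of members was compared with the number that the separate shares of KD 1 and KD 2 give. KD 1 was at or below the limit in 153 eligible rows (6.67%) and KD 2 in 275 (12.0%), and both were in 40 (1.74%). Multiplying the shares within classes of the control mean 5 percentage points wide gave 18.4 rows, so the observed count was 2.18 times as high. Both ratios of a row share its control mean as denominator, so a control mean that lay too high would lower both, and the ratio of counts need not be 1 where the KD animals are unrelated. With each KD animal set against the control of its own number alone, 47 rows passed in both and the ratio of counts was 2.38. Of the rows that passed in KD 1, 26.1% also passed in KD 2, and of those that passed in KD 2, 14.5% passed in KD 1. Most rows at the low end in one KD animal were therefore not there in the other. In the sequencing statistics of the study KD 2 has less depth than KD 1, and the part of depth in the higher share of KD 2 was not tested. The ratio was above 1 in each of 4 ranges of the control mean, namely 3.23 from 50% to 60%, 1.41 from 60% to 70%, 2.57 from 70% to 80% and 1.89 from 80% to 95%. Rows are not replicates, so these ratios carry no p-value.

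**Figure D2:**
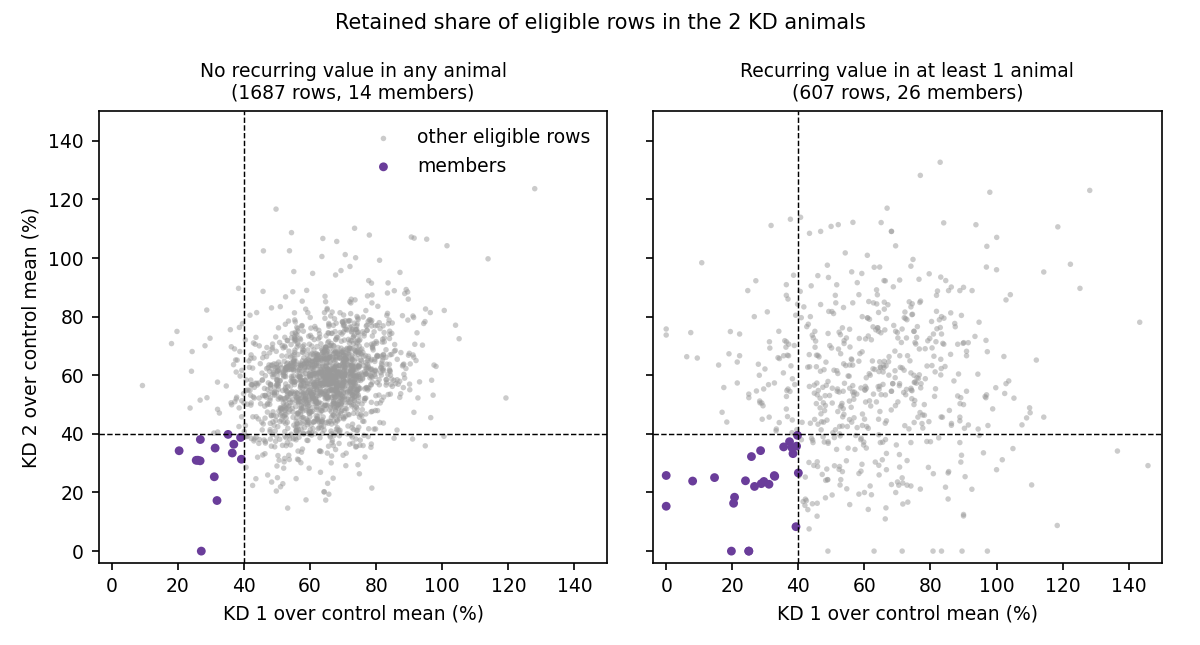
Retained share, in percent of the control mean, in KD 1 (horizontal axis) and KD 2 (vertical axis), with each point an eligible row, rows without a recurring value on the left and with one on the right, members in purple, dashed lines at the limit of 40% and both axes running to 150%. The 1687 rows with no recurring value form a compact cloud with 14 members at its lower left, while the 607 rows with a recurring value scatter more widely and hold 26 members.

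The coincidence differed between rows with and without recurring values. Among the 607 eligible rows with a recurring value in any animal, 16.1% passed in KD 1 and 23.9% in KD 2. Both passed in 26 rows against 24.0 from the product of the shares, a ratio of 1.08. Among the 1687 eligible rows with none, 3.26% passed in KD 1 and 7.71% in KD 2. Both passed in 14 rows against 4.42 from the product, a ratio of 3.17. Recurrence in the KD columns could depend on the low levels that define a member, so the rows were also divided on the controls alone. The 504 rows with a recurring value in a control held 20 members against 19.9 from the product, a ratio of 1.01. The 1790 rows without one held 20 members against 6.61, a ratio of 3.02. The difference between these ratios was not tested. When the product was taken within classes of both the control mean and recurrence in any animal, it gave 28.5 rows in total and a ratio of 1.41. Crossing with recurrence in a control gave 26.5 rows and a ratio of 1.51.

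**Figure D3:**
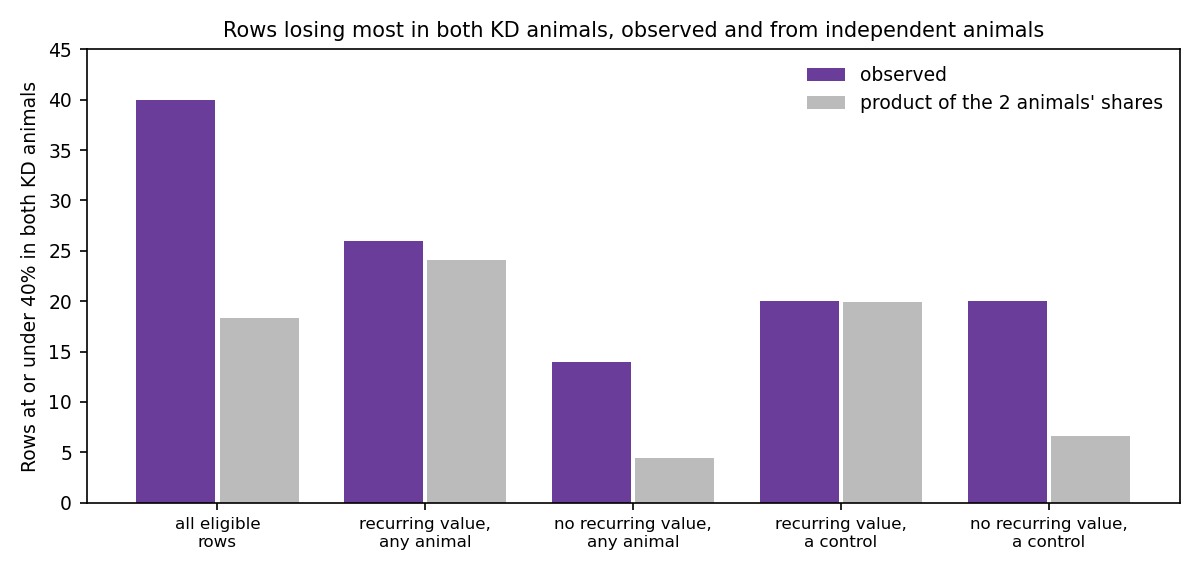
Number of eligible rows at or below 40% of the control mean in both KD animals (purple) and the number given by the product of the 2 animals' shares within control mean classes (grey), for all eligible rows and by recurrence of values. The bars stand at 40 and 18.4 for all rows and at 26 and 24.0 for rows with a recurring value, but at 14 and 4.42 for rows without one. Divided by the controls alone, they stand at 20 and 19.9 and at 20 and 6.61.

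Next, the members were compared with rows of the same control level for how often their values recur. A recurring value in at least 1 animal was found in 26 of 40 members (65%, Wilson 95% interval 49.5 to 77.9, counting error over rows only). The other eligible rows, weighted to the control levels of the members, had 25.3%, a difference of 39.7 percentage points. Counted on the control columns alone, whose levels enter the choice as the lower limit and as the denominator of both ratios, it was 20 of 40 members (50%, Wilson 95% interval 35.2 to 64.8) against 21.0%, a difference of 29.0 percentage points. The excess was present in every column. The KD columns hold the values that chose the members, and the counts over any animal include them, so neither is a separate check. In control 1 a recurring value was found in 45% of the members and 11.8% of the weighted other rows, in control 2 in 40% and 15.4%, in KD 1 in 40% and 10.8%, and in KD 2 in 47.5% and 16.5%. By level, 4 of 10 members with a control mean of 50% to 60% had a recurring value against 14% of the other rows there, and 6 of 6 between 60% and 70% against 23.2%. It was 7 of 12 between 70% and 80% against 18.7%, and 9 of 12 from 80% to 95% against 40.2%.

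Many of the recurring values of the members were small fractions. KD 2 was at exactly 20% in 8 members, a level that 115 rows of that animal carry, 32 of them eligible. KD 1 was at 20% in 4 members, with 49 such rows in the table, 11 of them eligible. An eligible row at 20% always passes the limit in that KD animal, so the rule itself favors these counts. Control 1 was at 66.7% in 6 members, with 49 such rows in the table, and control 2 at 80% in 4 members, with 89 such rows. A recurring value was present in all 4 animals for 7 members, in 3 for 9, in 2 for 4 and in 1 for 6. This split was not counted in the other eligible rows. A level within 1.5e-06 of a fraction with a denominator of at most 10 in any animal, on the scale from 0 to 1 of the table and by a definition that does not depend on other rows, was found in 22 members (55%) against 19.7% at the same control level. The table gives neither coverage nor the number of CpGs per row, so the depth behind a recurring value is unknown and its part in the members' loss was not tested. No member was identical to another row in all 4 animals.

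The gap between the 2 controls was wider in the members as a whole. The median absolute difference was 9.22 percentage points in the members and 6.39 in the other rows of the same control level. Weighting the others by recurrence in a control as well gave 7.5. For a control mean from 60% to 70% the order was the reverse, with 5 in members and 7.16 in the others. Members had the wider median gap in the other ranges. Controls were higher in animal 1 for 21 members, higher in animal 2 for 16 and equal for 3. Among rows without a recurring value in a control, the median gap was 8.75 percentage points in 20 members and 5.49 in the others, here not weighted by level. Among rows with one, the order turned, with 9.22 in members and 12.5 in the others, again not weighted. A level of 100% in one of the controls was listed for 6 members (15%) and 125 other rows (5.55%).

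Since the KD levels chose the members, the loss was also read in animals that had no part in the choice. Rows with control 1 from 50% to below 90% and KD 1 at or below 0.4 times control 1 were taken, and KD 2 was then divided by control 2. The 233 rows chosen in this way retained a median of 60% in the unused animals, against 60.8% in other rows at the same level of control 1. Nevertheless, 23.2% of them were at or below 40% in the unused animals, compared with 10.6% of the other rows. The share at 80% or more was higher as well, at 23.2% against 13.1%. The chosen rows thus lay more often at both ends of the distribution. The difference in medians depended on which animals were combined. Chosen on control 1 and KD 2 or on control 2 and KD 1 instead, the median difference was -3.85 or -3.64 percentage points. In the reverse direction, 275 rows were chosen on control 2 and KD 2 and read as KD 1 over control 1. Their median was 56.7% against 62.6%, with 19.6% at or below 40% against 6.21%, and 15.6% at 80% or more against 10.3%. Control 1 and KD 1 have more depth than control 2 and KD 2 in the sequencing statistics of the study. The 2 directions thus also differ in the depth of the choosing and the reading animals, and the part of depth was not tested.

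The reading control was free to be low in this comparison, whereas members need both controls at 50% or more. Requiring this level also in the control not used for the choice left 140 rows in the first direction, with a median of 53.5% against 59.9%, and 27.9% at or below 40% against 10.4%. The reading control then took part in the choice and was also the denominator, so this requirement can itself move these values. Of the chosen rows 140 of 233 remained, and of all rows compared 2030 of 2458. The part of this requirement in the change was not tested. The share at 80% or more was then 8.57% against 9.32%. In the reverse direction 225 rows were left, with a median of 55.6% against 62.7%, and 19.1% at or below 40% against 6.12%. The share at 80% or more was 12.0% against 9.13% there, so the high end differed in opposite directions in the 2 choices. The excess at the low end was again uneven. Where neither control had a recurring value, 26.4% of 72 chosen rows were at or below 40% in the first direction, against 7.69% of the others. With such a value it was 29.4% of 68 rows against 25.9%. In the reverse direction the corresponding shares were 15.9% of 132 rows against 3.51%, and 23.7% of 93 rows against 18.2%. With 1 animal per group on each side of the choice, no test was possible, and these differences are a description.

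**Figure D4:**
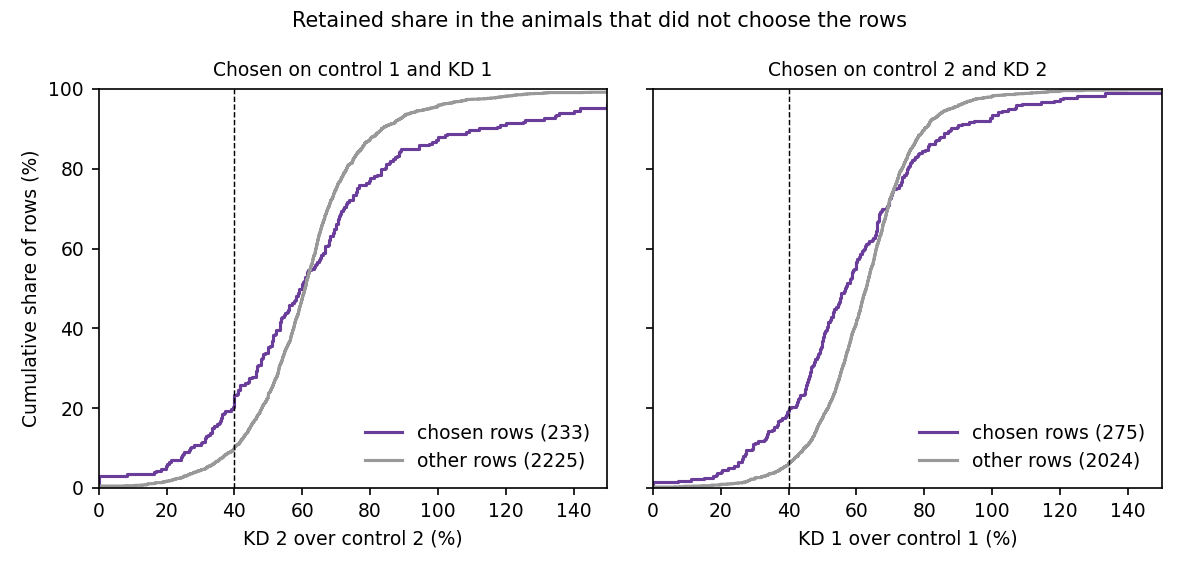
Cumulative share of rows (%, vertical axis) by the KD level over the control level in the pair of animals that did not choose them (%, horizontal axis, cut at 150%), for chosen rows in purple and unweighted other rows in grey, with a dashed line at 40%. The curve of the chosen rows is higher at 40% on both panels, and it falls below that of the other rows by 80%.

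The members were spread over the genome assembly as far as the identifiers show. They belonged to 40 different gene models on 35 contig prefixes, the part of the identifier before the point. The 2294 eligible rows belonged to 2222 gene models on 1327 prefixes. Few eligible rows share a model, so the count of models says little about the members. The ending covsplit was carried by 35 members (87.5%) and by 88.9% of the other eligible rows. The 4 prefixes with most rows in the table held 8 members (20%) and 22.0% of all eligible rows. 3 members lay on WNGS01169498, and 2 each on WNGS01092210, WNGS01163519 and WNGS01164437. Of the pair on WNGS01092210, WNGS01092210.1247600_2_covsplit had 89.8% and 89.6% in the controls, and 33.1% and 32.7% in KD 1 and KD 2, so that its animals were nearly alike within each group. Its partner WNGS01092210.1250175_0_covsplit had 77.8% and 73.3% in the controls, and 28.8% and 26.7% in KD 1 and KD 2. On WNGS01169498, the member not yet described was WNGS01169498.2636837, with 93.8% and 80% in the controls and 25% and 20% in KD 1 and KD 2. All 4 of its values recur, whereas none does in WNGS01092210.1247600_2_covsplit. Among the 559 eligible rows that share a prefix with a member of another gene model, 9 were members (1.61%), close to the 1.74% of all eligible rows.

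Few other segments of the members' own gene models were eligible. There were 5 such rows and 0 of them were members, for which the exact 95% interval reaches 52.2%. At the share of 1.74% among all eligible rows, this number of rows is too small to show a difference in either direction. The nearest to the limit was WNGS01169498.2636774_2_covsplit, with 78.9% and 79.4% in the controls and 36.1% and 26% in KD 1 and KD 2, so that it passed in KD 2 alone. WNGS01164858.2224560_12_covsplit had 100% and 83.3% in the controls, but 42.9% in KD 1 and again 100% in KD 2. A nearest eligible model by identifier number on the same prefix existed for 17 members. These neighbors retained a median of 59.3%, against 60.5% for the neighbors of 1117 other eligible rows, and 0 of the 17 were members, a number as little able to show a difference from 1.74%.

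The rows that the upper limit left out passed more often. Both controls were at 90% or more in 228 rows, of which 16.7% passed the limit of 0.4 in KD 1 and 32.9% in KD 2, against 6.67% and 12.0% of the eligible rows. Both passed in 19 rows against 12.5 from the product of the shares, a ratio of 1.52 beside 2.18 in the eligible rows. The difference was not tested.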

How the data were processed

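The study sequenced bisulfite-converted hemocyte DNA of 2 control and 2 KD animals. According to its methods, reads were trimmed, aligned with Bismark and deduplicated, cytosines below a combined coverage of 10X were excluded, as were genes with fewer than 10 CpGs. The submitters' processing notes name bedtools (v2.24.0). Which assembly version was used is not given in the sources used here. From the authors comes 1 deposited table with the average methylation fraction of each row in each animal, without coverage, so depth per row is unknown and no interval for reads was computed.

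Samples were grouped by their labels, with the animal as replicate. The members and the comparisons were chosen with earlier results of these data known. Retained shares, the product of the 2 KD shares, and shares or medians weighted to the members' control mean classes were computed in Python (v3.11.15) with pandas (v2.3.3) and scipy (v1.17.1). The product and the weighted shares were tested on simulated data. The simulated KD levels were continuous multiples of the observed control mean. Error in that mean and recurring KD values were therefore not simulated. Rows named in the text were the 8 members with the lowest larger ratio, the 8 such members without recurring values, and 3 on each side of the limit. Members of gene models with several members were also to be named, but there were none. Other rows of members' models and members sharing a contig prefix were named after their values were seen. Alternatives were leaving out each animal, other limits, classes, definitions of recurrence and row sets, and a replicate block. The classes crossed with recurrence, the sets of rows with recurring values or divided by the controls, the small fractions and the limit on the reading control were added after the data were seen.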

Additional observations from a re-analysis of the deposited data

How the results depend on the processing

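The count of 40 members was 14 at a limit of 0.3, 156 at 0.5 and 14 without rows of recurring values. Leaving out 1 animal gave 61 (without control 1) to 275 (without KD 1), with 92 without control 2 and 153 without KD 2. Leaving out an animal drops its condition, and leaving out a control also makes the other one the denominator. The ratio of 2.18 between the observed and the multiplied count was 4.07 at a limit of 0.3 and 1.51 at 0.5. It was 1.79 with no upper limit of the controls and 1.41 within classes crossed with recurrence in any animal. In rows with a recurring value in any animal it was 1.08, and in those with one in a control 1.01. The excess of recurring values in any animal, 39.7 percentage points, was 64.3 at a limit of 0.3 and 26.6 at 0.5. Counted on the control columns alone, the excess of 29.0 was 33.7 at a limit of 0.3 and 17.1 at 0.5. The median difference in the unused animals for rows chosen on control 1 and KD 1, -0.76 percentage points, was -2.04 and -2.28 at limits of 0.3 and 0.5, -1.80 at a higher and -1.42 at a lower limit of the control, -3.85 with crossed animals, 0.058 without rows of recurring values and -6.41 with the reading control at 0.5 or more. The share of members among other rows of their gene models, 0 of 5, was 13.3% of 15 rows at a limit of 0.5 and 10.5% of 19 without KD 1, and without rows of recurring values it gave no value. The cause of these changes was not tested.

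Controls and KD animals carry the same numbers. Deviations from the group mean were correlated between the animals of a number at 0.00200 across the whole table. The correlation was 0.0220 across eligible rows and 0.106 across the 40 members. No source states that the animals of a number shared a batch, and they were not treated as paired. In the sequencing statistics of the study, however, the libraries of a number resemble each other in raw reads, depth and mapping efficiency. Whether they shared a batch was not tested. With the replicate block, in which each KD animal was set against the control of its own number, there were 47 members and the ratio was 2.38. No result comes from a test across animals, and 2 animals per group limit all of them, as does the unknown depth per row.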
